A study of Mus musculus with 2 samples.

Results

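Border-associated macrophage genes were followed in single cells of the mouse optic nerve, with and without crush. The set held 8 genes, named one by one as known markers of these cells, of 31053 gene rows in the deposited table: Mrc1, Ms4a7, Folr2, Pf4, Stab1, Cbr2, F13a1 and Lyve1. All 8 had at least 1 unique molecular identifier (UMI, standing for 1 captured transcript), and 14428 rows did so in all. The injured group was 1 library from wildtype 129S1/SvlmJ mice whose optic nerve was crushed at 8 weeks of age and collected 2 weeks later. The uninjured group was 1 library from nerves of the same strain and age without crush. These ages are from the series' design text, whereas the source label gives P56 for both libraries. Animals of both sexes were used, and neither group carried a transgene or received an agent per the labels. The number of animals behind a library was not given in the sources used here. Each group is 1 library, so nothing was tested and no difference between the groups has a replicate check. All intervals are exact, at 95%, and cover counting error only.

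Border-associated macrophages are the resident macrophages of the meninges, the perivascular spaces and the choroid plexus, as opposed to microglia, which live within the nervous tissue. They are known for scavenger and endocytic receptors, such as the mannose receptor, and for sampling fluid at the edge of the tissue. Around the optic nerve, meninges form the sheath and vessels cross the nerve, so that both give such cells a place. Macrophages that come from blood monocytes after injury can carry several of the same genes.

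The injured library held 727 cells and 3697992 UMIs, with a median of 1123 UMIs per cell and a range of 500 to 53972. The uninjured library held 51 cells and 87499 UMIs, with a median of 888 and a range of 458 to 11100. Levels are given as CPM, UMIs scaled to a common total. A gene with a count of 0, taken as up to 3 UMIs, may be at up to 0.811 CPM after crush and at up to 34.3 CPM without it. Cells with at least 5000 UMIs are called deep. Shallower cells are called Malat1-rich where Malat1, a nuclear RNA, took at least 1% of their UMIs and Malat1-poor otherwise, with 59 injured cells and 1 uninjured cell lying within a factor of 2 of that divide. The injured library held 144 deep, 91 Malat1-rich and 492 Malat1-poor cells, and the uninjured library held 4, 17 and 30. In 1 of the 4 uninjured deep cells, 10194 of 11100 UMIs were haemoglobin transcripts. No barcode occurred in both libraries.

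The members lie on 7 chromosomes of the mm10 assembly, and all are protein-coding. Mrc1 spans chr2:14229392-14332057 on the forward strand and holds the microRNA gene Mir511 on the same strand. Ms4a7 spans chr19:11321039-11336146, Cbr2 spans chr11:120729489-120732114 and Lyve1 spans chr7:110850607-110863239, all on the reverse strand and with no other annotated gene over them. Pf4 is a short gene at chr5:90772435-90773383 on the forward strand. Stab1 (chr14:31139013-31168641), Folr2 (chr7:101839988-101857194) and F13a1 (chr13:36867178-37050244) are on the reverse strand and each overlap genes on the other strand, which for Stab1 is Nt5dc2. The submitters' notes did not state how strand was handled in counting. Whether any reads of the partners were counted for Stab1, Folr2 or F13a1 was not tested.

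The promoters of 3 members are shown because Ms4a7 and Pf4 gave most of the member UMIs and divided among the cells, while the few cells with Mrc1 are compared with the rest. Each runs from 250 bases before the start of the gene to 50 bases from it on, on the gene's strand, from RefSeq with build GRCm38.p6. Capitals mark the letters GAGGAA, a core of sites of the myeloid factor PU.1, on either strand (TTCCTC). The Mrc1 window is chr2:14229164-14229463, forward strand. The Ms4a7 window is chr19:11336097-11336396, reverse strand, at the first of its 2 listed starts. The Pf4 window is chr5:90772185-90772484, forward strand.
Mrc1: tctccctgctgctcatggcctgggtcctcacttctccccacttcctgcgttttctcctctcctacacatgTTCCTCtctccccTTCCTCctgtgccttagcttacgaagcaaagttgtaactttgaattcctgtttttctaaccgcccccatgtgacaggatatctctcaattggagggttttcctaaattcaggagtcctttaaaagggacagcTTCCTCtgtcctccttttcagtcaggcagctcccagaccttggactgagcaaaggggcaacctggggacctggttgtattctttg
Ms4a7: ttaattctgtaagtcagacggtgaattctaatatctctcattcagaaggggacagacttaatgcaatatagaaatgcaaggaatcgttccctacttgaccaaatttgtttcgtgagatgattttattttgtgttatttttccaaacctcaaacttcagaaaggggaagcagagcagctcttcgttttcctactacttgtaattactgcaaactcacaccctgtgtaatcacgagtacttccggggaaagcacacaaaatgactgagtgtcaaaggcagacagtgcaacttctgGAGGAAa
Pf4: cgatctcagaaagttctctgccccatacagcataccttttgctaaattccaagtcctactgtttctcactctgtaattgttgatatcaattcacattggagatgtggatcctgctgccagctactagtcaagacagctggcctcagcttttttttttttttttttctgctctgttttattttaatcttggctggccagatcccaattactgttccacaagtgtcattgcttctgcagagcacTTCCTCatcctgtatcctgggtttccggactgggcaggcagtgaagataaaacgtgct
The Mrc1 window held 3 matches, at 180, 167 and 35 bases before the start, the Ms4a7 window held 1 and the Pf4 window held 1, 8 bases before the start. Of 10 windows listed for 7 of the members, 7 held the letters, against 28.3% of all 32851 promoters of that length. The letters TGCTGA, a half-site of MAF factors, were in 4 of the 10 windows, against 19.5% of all, searched on both strands. A match is only a description of the letters.

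Summed over the 8 genes, the libraries differed little, at 771 CPM after crush and 800 CPM without (ratio 0.964, 95% interval 0.761 to 1.24). Behind that sum, the genes went different ways. Ms4a7 and, less so, Pf4 were higher in the injured library, while Mrc1, Folr2, Cbr2, F13a1 and Lyve1 were lower. The uninjured values rest on 70 member UMIs, of which 60, or 85.7%, came from 1 cell.

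Ms4a7 encodes a membrane protein with 4 predicted membrane spans whose function is little known. It had 1248 UMIs in 155 of 727 injured cells (21.3%), or 338 CPM, against 2 UMIs in 1 of 51 uninjured cells, or 22.9 CPM. The ratio was 14.8, with an interval of 4.08 to 122 that reflects the 2 uninjured UMIs. Pf4 encodes platelet factor 4, a chemokine stored in platelets and also made by macrophages. It had 1245 UMIs in 217 injured cells (29.9%), or 337 CPM, against 17 UMIs in 1 uninjured cell, or 194 CPM. The ratio of 1.73 had an interval of 1.08 to 2.98. Together Ms4a7 and Pf4 gave 87.4% of the injured member UMIs.

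Among the scavenger and uptake receptors, Mrc1 and Folr2 had lower summed levels after crush, though both directions rested on 1 uninjured cell. Mrc1, the mannose receptor CD206, had 67 UMIs in 15 injured cells, or 18.1 CPM, against 10 UMIs in 2 uninjured cells, or 114 CPM, which was 6.31-fold lower (2.89 to 12.3). Folr2, a folate receptor, had 125 UMIs in 69 injured cells, or 33.8 CPM, against 15 UMIs in 2 uninjured cells, or 171 CPM, which was 5.07-fold lower (2.76 to 8.69). Stab1, stabilin 1, a scavenger receptor shared with some endothelial cells, had 153 UMIs in 78 injured cells, or 41.4 CPM, against 7 UMIs in 4 uninjured cells, or 80.0 CPM. The interval of that ratio held 1, from 0.765-fold to 4.08-fold lower. The share of cells with a UMI did not follow the levels, at 9.49% of injured and 3.92% of uninjured cells for Folr2 and at 10.7% and 7.84% for Stab1, with intervals that overlap.

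Lyve1, a hyaluronan receptor of perivascular macrophages and of lymphatic vessels, was the member with no injured UMI. None of 727 injured cells had a UMI of it, which by 3 counts allows a share of cells with a UMI of up to 0.413% (exact limit 0.506%) and sets no limit on cells that express it unseen at a median of 1123 UMIs. The uninjured library had 8 UMIs in 2 cells, or 91.4 CPM, which was 113 times the injured floor of 0.811 CPM. With the counting error of both libraries, the exact interval began at 72.1-fold lower after crush. That interval takes each UMI as independent, whereas the 8 lay in 2 cells, 5 of them in 1. By cells, 3.92% of the uninjured (0.479 to 13.5%) had a UMI, an interval that overlaps the injured one (up to 0.506%). The enzymes were nearly as scarce. Cbr2, a carbonyl reductase, had 6 UMIs in 5 injured cells, or 1.62 CPM, and 3 UMIs in 1 uninjured cell, or 34.3 CPM (21.1-fold lower, 3.42 to 99.0). F13a1, the A chain of coagulation factor XIII, had 8 UMIs in 7 injured cells, or 2.16 CPM, and 8 UMIs in 1 uninjured cell, or 91.4 CPM (42.3-fold lower, 13.8 to 129).

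**Figure D1:**
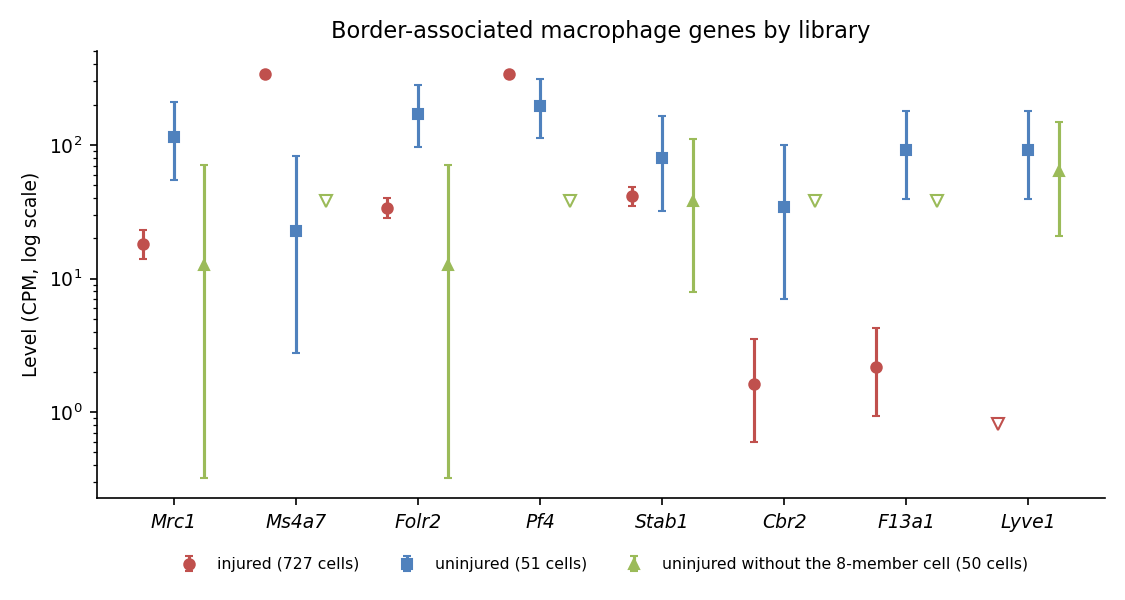
Level of each of the 8 genes in CPM (log axis) in the injured library, the uninjured library and the uninjured library without the cell that held all 8 members; bars are exact 95% Poisson intervals and open triangles mark the level that 0 UMIs allows. Ms4a7 and Pf4 stand highest after crush, Lyve1 has no injured UMI, and the uninjured levels of Mrc1 and Folr2 fall to 1 UMI each without that cell.

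That uninjured cell had 8863 UMIs, 2.03% of them Malat1, and held all 8 members. Its counts were 17 of Pf4, 14 of Folr2, 9 of Mrc1, 8 of F13a1, 4 of Stab1, 3 of Cbr2, 3 of Lyve1 and 2 of Ms4a7. It also held 6 UMIs of Cd163, a haemoglobin scavenger receptor typical of perivascular macrophages, 22 of the MHC class II gene H2-Aa, 81 of the complement gene C1qa and all 39 uninjured UMIs of Retnla, a gene of alternative activation that had none in the injured library. It had no UMI of P2ry12, a defining microglia gene. A second uninjured cell, Malat1-poor with 1422 UMIs, held 4 members, with 5 UMIs of Lyve1 and 1 each of Mrc1, Folr2 and Stab1. The remaining 2 uninjured cells with a member held 1 UMI of Stab1 each, and 47 of 51 held none.

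Without the cell that held all 8, the uninjured member level was 127 CPM and the injured level was 6.07-fold higher (3.29 to 12.7). Ms4a7 and Pf4 were then at 0 in the uninjured library, and the exact intervals of their ratios began at 7.18-fold and 7.17-fold higher after crush. The log2 ratios, with 10 CPM added to both levels, went from -2.14 to 0.31 for Mrc1, from -2.05 to 0.95 for Folr2, from -0.81 to 0.09 for Stab1, from -1.93 to 0.22 for Cbr2 and from -3.06 to 0.28 for F13a1. The direction of these 5 genes between the libraries thus rested on 1 cell. Lyve1 stayed lower, with 5 uninjured UMIs, all in the second cell, and an exact interval that began at 43.1-fold lower after crush. In summed libraries, fewer cells of a kind and less RNA per cell cannot be told apart.

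A gene was called at a ratio of 1.5 on the scale with 10 CPM added, provided that 10% or more of either library's cells had it. Of the 4021 genes compared, 32.8% were called higher and 21.8% lower, with a median log2 ratio of 0.17. Of the 8 members, Ms4a7 and Pf4 passed through the injured library alone, where they were higher, and Stab1 also passed, so that a count of calls among these 3 is no result about the members. With no filter, 2 of the 8 were called higher and 6 lower, against 20.7% and 21.5% of 14407 genes. Of 28 further genes known from border-associated macrophages, 9 were seen in at least 10% of all cells together, most of which were injured, and 5 of these were called higher and 1 lower. Of all 3781 genes that passed in that way, 32.8% were called higher and 20.4% lower. With the filter at 10% of either library's cells, 11 of the 28 passed, and 5 were called higher and 3 lower. Hpgd, at 13.25 against 114 CPM, and Igfbp4, at 14.1 against 91.4 CPM, passed only there, through the uninjured library. Selenop, which encodes the selenium carrier selenoprotein P, was highest among the 9, at 942 CPM against 549 CPM. Colec12, a scavenger receptor, was at 177 against 57.1 CPM and Ms4a6c, a relative of Ms4a7, was at 184 against 45.7 CPM. Fcna, a ficolin, did not pass the filter, with 2 injured and 17 uninjured UMIs, 8 of those in the cell with all 8 members. Cd163 had 4 injured UMIs and 6 uninjured ones, all 6 in that cell.

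Pf4 and F13a1 are also platelet genes, and Lyve1 and Stab1 also mark lymphatic and other endothelium. Of 8 platelet markers, Ppbp, Gp9, Gp1bb, Gp6 and Tubb1 had no UMI in either library, and the 8 summed to 4.87 CPM after crush against 11.4 CPM without. Of 4 lymphatic markers, Flt4 and Ccl21a had no UMI, and the 4 summed to 24.6 CPM against 0. Of 6 endothelial markers, Cdh5 and Tek had no UMI, and the 6 summed to 71.7 CPM against 91.4 CPM. Of 8 monocyte markers, 7 had an injured UMI and 1 an uninjured one, with sums of 52.2 CPM against 11.4 CPM, led by Ccr2, the receptor that brings monocytes out of marrow, at 18.9 CPM. Their part in the member levels was not tested.

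In 5 injured cells with at least 2 T cell genes and a median of 5387 UMIs, none had a UMI of any member, which for 5 cells allows a share of up to 60%. Among 352 injured cells with 803 to 6624 UMIs (median 1410.5) and no T cell gene, Pf4 was seen in 28.4%, Ms4a7 in 15.9%, Stab1 in 7.67% and Folr2 in 3.69%. Mrc1 was seen in 1.42% of those cells. With 5 T cells a low share from free RNA could not be seen.

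Within the injured library, Ms4a7, Pf4 and Stab1 differed among the depth classes, each in its own order. Ms4a7 was at 385 CPM in deep cells, 278 CPM in Malat1-rich and 107 CPM in Malat1-poor ones, and the last interval (82.0 to 138) lay under the other 2. Pf4 ran otherwise, at 341 CPM in deep and 394 CPM in Malat1-poor cells but 79.4 CPM in Malat1-rich cells (43.4 to 133). Stab1 was the reverse of Pf4, at 284 CPM in Malat1-rich cells (211 to 374) against 31.5 CPM in deep and 17.6 CPM in Malat1-poor cells. It was seen in 18 of the 91 Malat1-rich cells, and the cell with most gave 8 of its 50 UMIs there.

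Mrc1 was at 56.7 CPM in Malat1-rich, 19.0 CPM in deep and 1.76 CPM in Malat1-poor cells, the last from 1 UMI. Of its 10 Malat1-rich UMIs 5 were in 1 cell, and it was seen in 5 of 91 Malat1-rich and 9 of 144 deep cells, so that its order between these classes is unsure. Folr2 was even, at 36.2, 28.4 and 22.9 CPM in deep, Malat1-rich and Malat1-poor cells, with intervals that overlap. Cbr2 and F13a1 had no UMI in 492 Malat1-poor cells, which allows 5.27 CPM. Summed over members, the levels were 817, 743 and 543 CPM. The classes also differed in mitochondrial share, with a median of 10.7% for Malat1-rich, 2.36% for deep and 0.503% for Malat1-poor cells, and the part of RNA quality in these levels was not tested. Deep cells held 84.6% of the injured member UMIs and 79.9% of all injured UMIs.

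**Figure D2:**
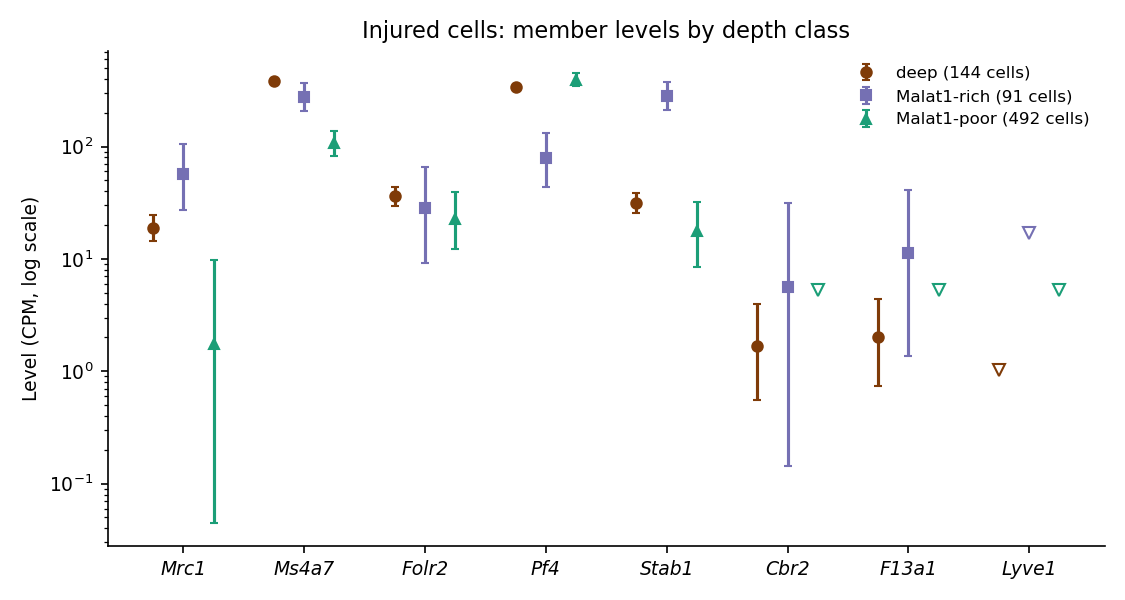
Level of each gene in CPM (log axis) in the injured deep, Malat1-rich and Malat1-poor cells; bars are exact 95% Poisson intervals and open triangles mark the level that 0 UMIs allows. Pf4 is lowest and Stab1 is highest in the Malat1-rich cells, while the Mrc1 level there rests on 10 UMIs, 5 of them in 1 cell.

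Detection followed depth. In deep cells Ms4a7 and Pf4 were each seen in 90 of 144 cells (62.5%), Folr2 in 53 and Stab1 in 51. With every cell thinned to 500 UMIs, which left out no injured cell, Pf4 was seen in 15.3% of deep and 14.4% of Malat1-poor cells but 2.20% of Malat1-rich cells. Stab1 was then seen in 9.89% of Malat1-rich cells, 2.78% of deep cells and 1.42% of Malat1-poor cells. Ms4a7 was seen in 12.5%, 9.89% and 4.88% of deep, Malat1-rich and Malat1-poor cells. Mrc1 was seen in 2.08% of deep and 1.10% of Malat1-rich cells, the reverse of the order of its levels. At equal depth Pf4 was again lowest and Stab1 again highest in Malat1-rich cells, though the Stab1 intervals of Malat1-rich (4.62 to 18.0%) and deep cells (0.762 to 6.96%) overlapped.

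Few injured cells held several members. Of 727, 394 held none, 206 held 1, 69 held 2, and 58 (7.98%, 6.11 to 10.2%) held at least 3. Of these 58 cells, 53 were deep, 4 Malat1-rich and 1 Malat1-poor, and their median depth was 22648.5 UMIs against 1027 in the rest. In the uninjured library 2 of 51 cells held at least 3, the ones described above. After thinning to 500 UMIs, 2 injured cells held 3, and after thinning deep cells to 5000 UMIs, 15 of 144 (10.4%) did, against 53 (36.8%) before.

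**Figure D3:**
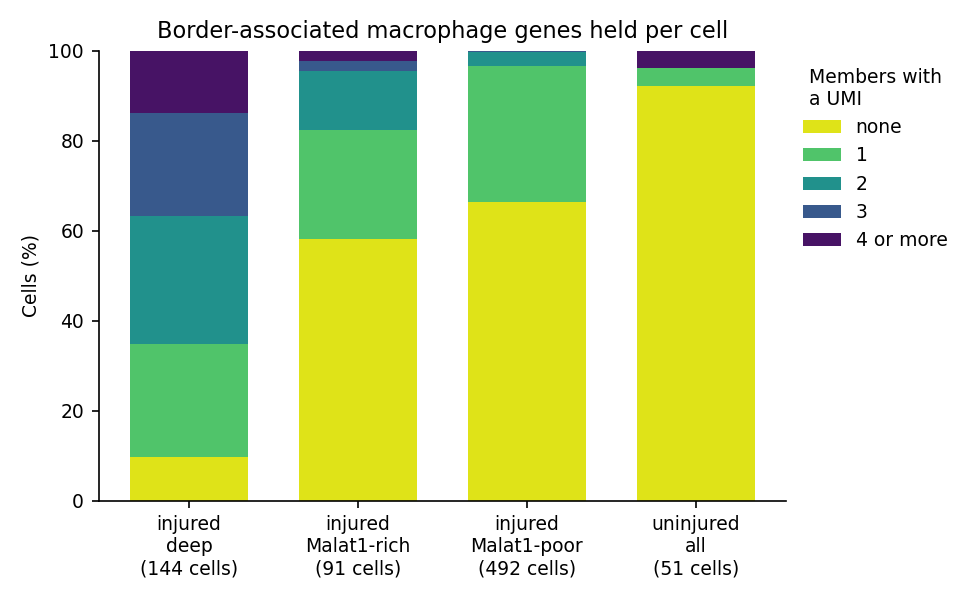
Share of cells (%) that held a UMI of no, 1, 2, 3 or at least 4 of the 8 genes, for the 3 classes of injured cells and for all uninjured cells. Cells with 3 or more members are 36.8% of the deep cells and rare in the shallow ones.

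The 58 cells were held together by the abundant members. Ms4a7 was present in 91.4% of them, Pf4 in 86.2%, Folr2 in 69.0% and Stab1 in 65.5%, but Mrc1 in 19.0% and Cbr2 and F13a1 in 8.62% each. The commonest sets were Ms4a7 with Folr2 and Pf4 in 18 cells, these 3 with Stab1 in 13, and Ms4a7 with Pf4 and Stab1 in 7. Folr2 was found with Pf4 in 45 of the 53 deep cells that held it (84.9%), against 45 of 91 deep cells without Folr2 (49.5%), but this narrowed at 5000 UMIs to 13 of 19 against 61 of 125. The pair Cbr2 and F13a1 shared 3 of the 5 and 7 injured cells that held them.

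The injured cell with most members held 7, all but Lyve1. It was deep, with 10628 UMIs, of which 14 were Mrc1, 8 Ms4a7, 8 Pf4, 3 Folr2, 2 Cbr2, 1 Stab1 and 1 F13a1. It also had 110 UMIs of H2-Aa, 3 of the microglia gene P2ry12, 2 of Cd163, 1 of Ccr2 and none of Gpnmb, a gene of lipid-laden macrophages. A further 3 injured cells held 5 members, 2 of them deep.

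Deep injured cells with at least 3 members after thinning to 5000 UMIs were set beside the other 129. Of 2635 other genes seen in at least 25% of either set, 28.3% were called higher and 11.7% lower. Scarce genes can pass that filter through the 15 cells alone, where they must then be high. Lists are therefore counted among the 1880 genes seen in at least 25% of all deep cells together, of which 12.5% were called higher and 15.7% lower. Of the 28 further border-associated macrophage genes, 8 passed in that way, and 5 of these were called higher and 0 lower, at a median log2 ratio of 0.74 against -0.04 over all genes. Selenop was at 1760 against 1006 CPM, and Dab2, an endocytic adaptor, at 347 against 146 CPM. Clec4n, the lectin Dectin-2, was at 200 against 4.65 CPM, from 15 against 3 UMIs. It passed only through the 15 cells, so that its direction was set by the filter and is not counted here. The 4 MHC class II genes that passed were called higher, with H2-Aa at 2307 against 825 CPM (ratio 2.80, 2.34 to 3.33), but 1 cell gave 33.5% of its UMIs in the 15. The summed MHC class II level had a median of 600 CPM and a range of 0 to 40200 in the 15 cells, against a median of 200 CPM and a range of 0 to 63000 in the others. Of 4 microglia genes that passed, 0 were called higher and 1 lower, and of 11 lipid-laden macrophage genes 1 was higher and 2 lower.

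The 10 highest genes in the cells with several members were the chemokines Ccl2, Ccl7 and Ccl12, then Clec4n, Cd38, Lbh, Klhdc10, Hspa1a, Rab32 and Dnase1l1. All 10 passed the filter through the 15 cells alone, so that their direction was set by the filter and is not counted as a result. Ccl2 was at 947 CPM in 6 of 15 cells against 43.4 CPM in 8 of 129. Ccl7 was at 1080 CPM, but 93.8% of those UMIs came from 1 cell, and 1 cell also gave most of those of Ccl12. Among the 10 lowest were Papss1, Fgr, Osgep, Grcc10, Cmc1 and Kpna3, none of which had a UMI in the 15 cells, and Rassf3, Il1b and Ndufs6. Il1b, the cytokine interleukin 1 beta, was at 187 against 1085 CPM. The 10 lowest passed the filter through the 129 cells alone. For the first 6 the upper limits of the ratio ran from 0.752 to 0.877. These 6 were picked as the lowest, so that limits under 1 follow from the choice and are no check of it.

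Ms4a7 and Pf4, the 2 most abundant members, did not go together across deep cells. At 5000 UMIs, 32 of the 144 deep cells held both, 34 Ms4a7 alone, 42 Pf4 alone and 36 neither. Pf4 was in 48.5% of the cells with Ms4a7 and in 53.8% of those without, and the rank correlation of their UMIs over the 144 cells was -0.079. Of 1767 genes, Lyz2, which encodes lysozyme, went most with Ms4a7 (rank correlation 0.585), then Mgst1 (0.429), a glutathione transferase, and the matrix glycoprotein gene Sparc went most against it (-0.564). Pf4 went most with Tyrobp (0.561), a signalling adaptor of myeloid receptors, and C1qa (0.506). These cells share 1 library and 1 thinned depth, and the sums over all members went most with Adgre1 (0.409), the F4/80 receptor.

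The 4 sets were chosen after these values were seen. Sparc was at 88.2 CPM (49.4 to 146) in 7 of 34 cells with Ms4a7 alone and at 1971 CPM in all 42 cells with Pf4 alone. Lyz2 was at 24600 against 8360 CPM. Of the 1880 genes, 13.7% were called higher and 16.1% lower in the cells with Ms4a7 alone. The 4 microglia genes that passed were all called lower there, with Olfml3 at 64.7 against 305 CPM and Cx3cr1, the fractalkine receptor, at 447 against 795 CPM.

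Lipid-laden macrophage genes split between these cells. Lpl, lipoprotein lipase, was at 135 CPM with Ms4a7 alone and 1550 CPM with Pf4 alone, Cst7 at 70.6 against 881 CPM and Spp1, osteopontin, at 4410 against 17200 CPM. Gpnmb went the other way, at 2053 against 810 CPM, as did Fabp5, a fatty acid carrier, at 2206 against 971 CPM and Plin2, a coat protein of lipid droplets, at 888 against 443 CPM. Of the 11, 4 were called higher and 5 lower with Ms4a7 alone. Of 4 MHC class II genes that passed over all deep cells, 2 were called higher with Ms4a7 alone and 0 lower. H2-Aa was at 1082 CPM with Ms4a7 alone, 38.0% of it from 1 cell, and at 47.6 CPM with Pf4 alone. H2-Eb1, at 1218 CPM (54.6% from 1 cell) against 23.8 CPM, passed only through the cells with Ms4a7 alone. The summed MHC class II level had a median of 200 CPM in both sets. Any UMI of these genes was seen in 67.6% of cells with Ms4a7 alone and 78.6% with Pf4 alone.

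**Figure D4:**
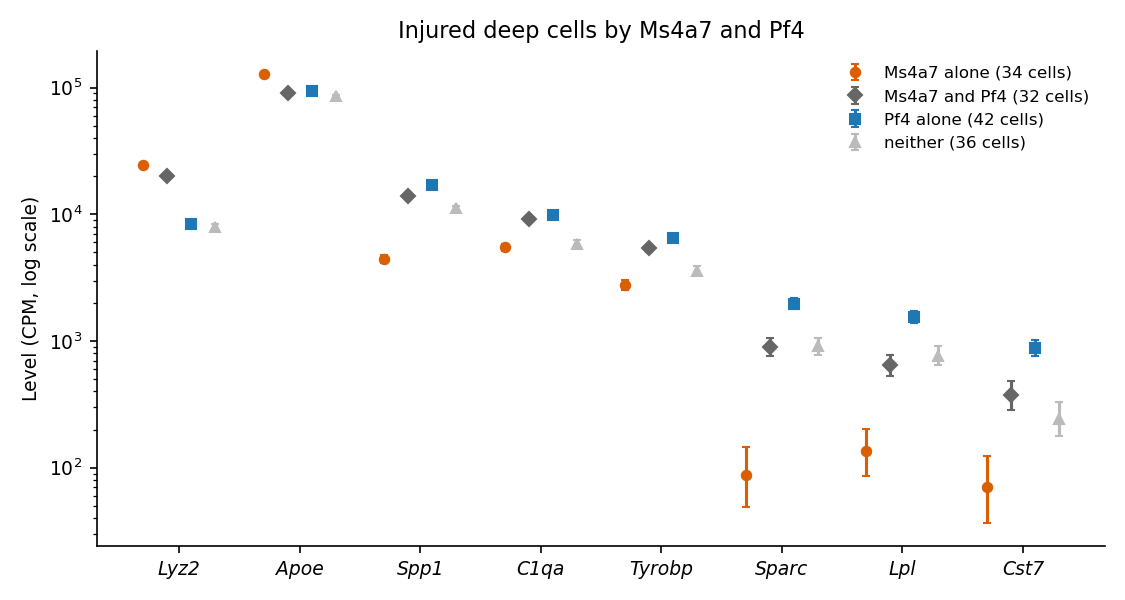
Levels of 8 genes in CPM (log axis) in injured deep cells thinned to 5000 UMIs, by whether they held Ms4a7, Pf4, both or neither; bars are exact 95% Poisson intervals. Sparc, Lpl and Cst7 are lowest and Lyz2 highest in the cells with Ms4a7 alone.

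The shallow injured cells had no part in that choice of genes but came from the same library, so they are no replicate. They gave the same direction for Lyz2 and Sparc. In Malat1-rich cells Lyz2 was at 8390 CPM with Ms4a7 alone (20 cells) and 2170 CPM with Pf4 alone (5 cells), and Sparc was at 250 against 1040 CPM. With Pf4 alone these levels came from 25 UMIs of Lyz2 and from 12 of Sparc in 2 of the 5 cells. In Malat1-poor cells Lyz2 was at 13200 CPM (32 cells) against 5650 CPM (109 cells), and Sparc was at 884 against 1610 CPM. Spp1 did not keep its direction, at 18800 CPM with Ms4a7 alone and 7430 CPM with Pf4 alone in Malat1-poor cells. In Malat1-rich cells it was at 2590 against 1560 CPM, with intervals that overlap. The lipid-laden macrophage list did not keep its direction either, at 29200 against 19000 CPM in Malat1-poor and 9020 against 6080 CPM in Malat1-rich cells.

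Mrc1 was seen in few injured cells, and the deep ones among them had a higher median level of MHC class II genes and a lower median level of lipid-laden macrophage genes. Of the 15, 9 were deep, 5 Malat1-rich and 1 Malat1-poor, and 11 also held Ms4a7, 11 Stab1, 6 Pf4 and 3 Folr2. In the 9 deep cells the 5 MHC class II genes summed to a median of 17500 CPM, with a range of 50.1 to 62400, against a median of 238 CPM in the 135 deep cells without Mrc1. Of the 9, 6 were at or over 10000 CPM, and of the 135, 7 were. The ranges overlap, so that the level of 1 cell does not tell whether it holds Mrc1. Ccr2 was seen in 4 of the 9 and in 7 of the 135. The 11 lipid-laden macrophage genes summed to a median of 1757 CPM with Mrc1, with a range of 882 to 15090, and to a median of 19700 CPM without, with a range of 158 to 122000. The 1 Malat1-poor cell with Mrc1 was at 20300 CPM for these genes.

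**Figure D5:**
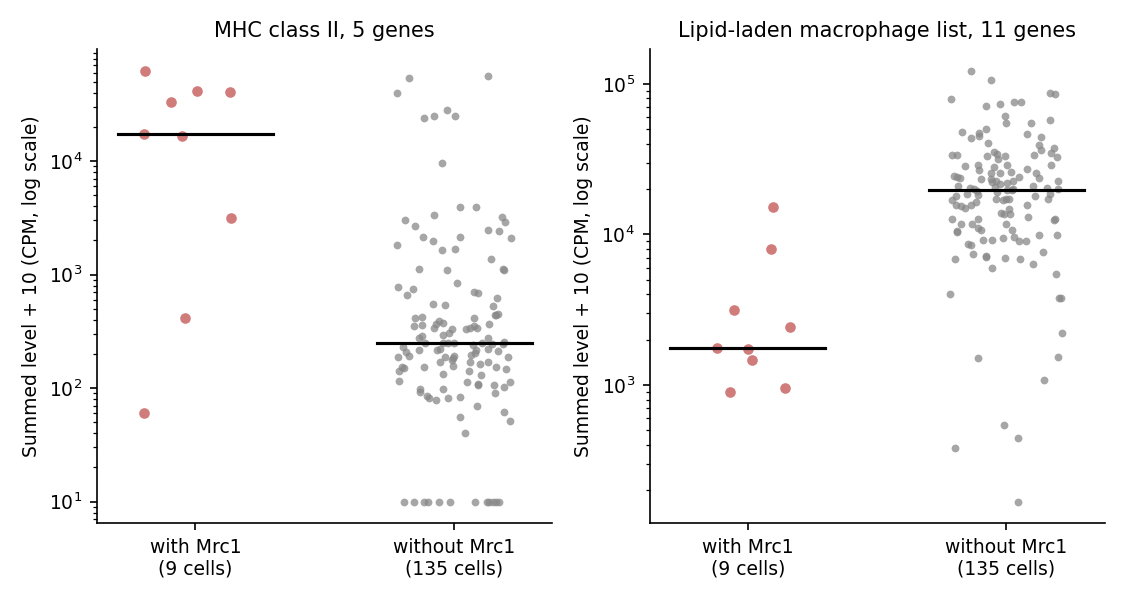
Summed level of 5 MHC class II genes and of 11 genes of lipid-laden macrophages per injured deep cell, with 10 CPM added (log axis), for 9 cells with and 135 without an Mrc1 UMI; each point is 1 cell and lines are medians. With Mrc1 the median MHC class II level is higher and the median lipid-laden level lower, and the ranges overlap.

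At 5000 UMIs, 7 deep cells held Mrc1 and 137 did not. Of 3110 genes seen in at least 25% of either set, 42.8% were called higher and 18.0% lower in the 7. Of the 1880 genes seen in at least 25% of all deep cells together, 19.2% were called higher and 29.5% lower in the 7, with a median log2 ratio of -0.11. The 4 MHC class II genes that passed were called higher, with H2-Aa at 8229 against 609 CPM (ratio 13.5, 11.6 to 15.7) and seen in 6 of 7 cells. Of the H2-Aa UMIs in the 7, 37.5% came from 1 cell. Of the further border-associated macrophage genes, 8 passed, and 7 of these were called higher and 1, Colec12, lower. Tgfbi, a matrix protein induced by TGF beta, was at 400 against 80.3 CPM, and Ms4a6c at 543 against 181 CPM. Cd163 did not pass.

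Among genes seen in at least 25% of either set, the chemokine genes Ccl7, Ccl2 and Ccl12 were the highest in the 7 cells. They passed that filter through the 7 cells alone, and 4 of the 7 were among the 15 cells with several members. Of the Ccl7 and Ccl12 UMIs in the 7, 61.3% and 70.8% came from 1 cell each. Ccl2 was in 5 of the 7 cells against 9 of 137. Of the 11 lipid-laden macrophage genes 8 were called lower, with Spp1 at 886 against 12520 CPM and Gpnmb at 114 against 1255 CPM. Sparc and Cst7 had no UMI in the 7 cells and were at 1076 and 439 CPM in the rest. Of 4 microglia genes that passed, 0 were called higher and 3 lower. P2ry12 and Tmem119, which did not pass over all deep cells, had 5 UMIs each in the 7 cells. P2ry12 was higher there, at 143 CPM (46.4 to 333) in 4 of 7 cells against 45.3 CPM in 26 of 137. Among genes seen in at least 25% of either set, 6 microglia genes passed, of which 2 were called higher and 3 lower. In the 5 Malat1-rich cells with Mrc1, MHC class II was at a median of 512 CPM, with a range of 385 to 3760, and none reached 10000 CPM.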

How the data were processed

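Cells of the optic nerve were captured with 10x Genomics 3' droplet chemistry, and the deposited file is a single matrix of raw UMI counts, whole numbers with genes in rows and the cells of both libraries in columns. Tools named per the submitters' processing notes are Seurat 4.0.3, Cell Ranger 1.3 and bcl2fastq 2.17.1.14, with build mm10; the annotation release was not given in the sources used here. How the authors picked the 778 cells as macrophages and microglia sets which other cells remain.

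Counts were summed per library, class or set and scaled to CPM, with no length scaling, since each UMI tags a 3' end. Intervals at 95% are exact: conditional binomial for ratios, Clopper-Pearson for shares and Poisson for levels. A count of 0 was read as up to 3 counts. Genes were called at 1.5-fold on log2(CPM + 10), among genes seen in at least 10% of cells of either library, or 25% of either set of deep cells. Lists were counted among genes seen in 10% of all cells, or 25% of all deep cells, together, a filter chosen after the data were seen, since the first filter lets scarce genes in through the set where they are high. Thinning drew 500 or 5000 UMIs per cell without replacement. Doublets were neither called nor removed, given 778 cells. The 26 rows whose names had become dates took 0.0512% of UMIs and were left out of comparisons. Gene positions are from GENCODE on mm10. Named genes were the 8 members, the most abundant members of other lists, the 10 highest and 10 lowest genes between deep cells with and without several members, and the genes most like the members; others named, and the sets by Mrc1, Ms4a7 and Pf4, were chosen after their values were seen. A few genes picked by this rule are not reported here. The members and lists were chosen with earlier results of these data known. The calls and intervals were tried on simulated library sums with Poisson counts and no cells. How they behave where 1 cell holds most UMIs of a gene was therefore not tested. Python 3.11.15, numpy 2.4.6, scipy 1.17.1, pandas 2.3.3 and edgeR 4.0.16 (scaling factors only) were used.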

Additional observations from a re-analysis of the deposited data

How the results depend on the processing

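No paired analysis was possible because each group is 1 library and no result comes from a test. The summed member ratio of 0.964 was 2.2 with each cell at equal weight, 1.31 with median-of-ratios and 1.35 with TMM scaling, 3.05 in cells under 5000 UMIs, 1.85 at 500 UMIs per cell, 5.87 without the top cell of each library, and 6.07 without the uninjured cell with most member UMIs, an alternative chosen after seeing the data. Median-of-ratios and TMM scaling moved the median log2 ratio of all genes from 0.17 to 0.56 and 0.59. The 2 members called higher among the 3 that passed the filter became 1 with totals without mitochondrial and haemoglobin genes, without cells over 50% haemoglobin, or at 2-fold. The 1 called lower became 0 with 50 CPM added, equal weight, median-of-ratios or TMM scaling, cells under 5000 UMIs, 500 UMIs, without the top cells, without the 8-member cell or at 2-fold, 2 with a 5% filter and 6 with none.

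Log2 ratios turned positive as follows; the cause was not tested beyond the cells left out. Without each gene's top cells they were 0.086 for Mrc1, 0.83 for Folr2, 0.018 for Stab1, 0.15 for Cbr2 and 0.22 for F13a1. Without the 8-member cell they were 0.31, 0.95, 0.093, 0.22 and 0.28. In cells under 5000 UMIs they were 0.22 for Folr2, 0.41 for Stab1, 0.18 for Cbr2 and 0.34 for F13a1. At 500 UMIs, in 1 random draw, they were 1.55 for Mrc1 and 2.87 for Stab1. In that draw 0 of 49 uninjured cells held either gene, against 5 and 20 of 727 injured cells. With equal weight the log2 ratio of Stab1 was 0.037. Ms4a7 stayed higher and Lyve1 lower in all of these.

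The share of injured cells with several members, 7.98%, was 17.5% for at least 2 members, 3.03% for at least 4, 3.30% counting only genes with 2 UMIs, 0.275% at 500 UMIs and 10.4% of deep cells at 5000. It was 3.71% without Ms4a7, 4.54% without Folr2, 3.85% without Pf4, 5.50% without Stab1 and 3.71% without F13a1 and Pf4. Genes higher and lower in deep cells with several members, 747 and 308, were 138 and 142 with at least 2 members (55 cells), 1859 and 765 with at least 4 (2 cells), 404 and 180 with 50 CPM added, 1609 and 1041 with a 10% filter, 2407 and 2641 with none, and 235 and 296 with the filter over all deep cells together, chosen after seeing the data, so that the excess of higher genes rests on the filter. The summed levels by class stayed within their intervals under other depth and Malat1 divides. The 87499 uninjured UMIs limit every ratio between the libraries.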
